A study of Homo sapiens with 27 samples.

Results

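The RNA-binding proteins LIN28A and LIN28B, the chromatin proteins HMGA1 and HMGA2 and the IGF2 mRNA-binding proteins IGF2BP1, IGF2BP2 and IGF2BP3 were followed as 7 genes of the 44852 in a bulk RNA-seq table. The 7 genes were chosen by symbol, through the Ensembl identifiers of the table. The cells were H1, a single human embryonic stem cell line at passages 10 to 25, grown and differentiated as a monolayer on recombinant laminins, the proteins of the basement membrane. Each of 3 laminin matrices, named here LN523, LN323 and LN521, was sampled at days 2, 22 and 32, with 3 libraries in each of the 9 groups.

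At day 2 the cells were labelled as undifferentiated stem cells. From day 2, all cultures received CKI-7, a casein kinase 1 inhibitor, and SB431542, an inhibitor of TGF-beta type I receptors. They were later moved to a photoreceptor medium with B27 without vitamin A, N2, BDNF, CNTF, retinoic acid and the gamma-secretase inhibitor DAPT, so that the matrix was the sole labelled difference between cultures of a day. Days 22 and 32 were labelled as photoreceptor progenitors. The labels describe LN323 as used alone and the other isoforms as combined with LN323, whereas the methods describe LN521 as used alone and the other isoforms as combined with LN521. The matrices are therefore named by their leading isoform, and which isoform all of them shared cannot be told apart here. The labels do not say whether the 3 libraries of a group came from separate cultures. The p-values therefore rest on a fitted spread between these libraries, which may be technical.

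Libraries held 25620624 to 47340990 counts, with a median of 39862487. The level of a gene is given in TPM, which corrects for gene length and library size, and tests were run on the counts. The labels of the days were checked against marker genes. The sum of 9 pluripotency markers had a median over the 9 libraries of a day of 8574 TPM at day 2, 78.6 TPM at day 22 and 50.7 TPM at day 32. The sum of 6 retinal progenitor markers rose from a median of 3.62 TPM at day 2 to 1370 TPM at day 22 and 1522 TPM at day 32. The 7 photoreceptor markers had summed medians of 150.3, 74.4 and 105 TPM at day 2 on LN523, LN323 and LN521, of 25.3, 26.5 and 52.3 TPM at day 22 and of 115, 47.5 and 77.8 TPM at day 32. By edgeR at an adjusted p under 0.05, 3 of the 7 rose and 2 fell on each matrix from day 2 to 22. In that step 21.7%, 22.7% and 18.9% of all genes passed on LN523, LN323 and LN521. From day 22 to 32, 2 rose on LN523, 0 on LN323 and 1 on LN521, where 0.381%, 0.0424% and 0.268% of all genes passed. With the stricter edgeR filter filterByExpr, 0 genes of the whole table passed in the later step on LN523, so the 2 rises there were lost. Pigment epithelium markers had a median of 137 TPM at day 2, 1354 TPM at day 22 and 875 TPM at day 32. Neuron markers went from 29.2 TPM to 29.2 TPM and 170 TPM, surface ectoderm markers from 3.06 TPM to 50.3 TPM and 323 TPM, and mesenchyme and neural crest markers from 79.6 TPM to 647 TPM and 903 TPM. In such bulk samples, fewer cells that express a gene and less RNA of it per cell cannot be told apart.

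LIN28A and LIN28B bind the precursors of let-7 microRNAs and block their maturation, LIN28A by recruiting the terminal uridylyltransferase TUT4, which marks the precursor for decay. Mature let-7 in turn binds the 3′ untranslated regions of mRNAs that carry its seed match, among them those of LIN28B, HMGA2 and the IGF2BP genes, so that both sides of this loop restrain each other. HMGA1 and HMGA2 are small proteins that bind the minor groove of AT-rich DNA through AT-hooks and shape chromatin. The IGF2BP proteins bind mRNAs through RRM and KH domains and govern their stability, transport and translation. These genes are high in embryonic cells and progenitors, and the LIN28 and let-7 pair times the sequence of cell births in the vertebrate retina.

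The sequences that join the 7 genes are the let-7 seed and its matches. The reference annotation (RefSeq, GRCh38.p14) lists 12 loci for 9 mature let-7 and miR-98 names, and all 9 names carried the same seed, GAGGUAG, in bases 2 to 8. Mature microRNAs were not measured in these libraries. The mature sequences of 4 names follow, with the seed in capitals, to show that the family shares its seed and differs in the rest.
hsa-let-7a-5p: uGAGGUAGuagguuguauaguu
hsa-let-7b-5p: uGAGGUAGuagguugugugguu
hsa-let-7g-5p: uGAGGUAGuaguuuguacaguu
hsa-miR-98-5p: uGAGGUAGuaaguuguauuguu

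LIN28 proteins recognise a GGAG stretch in the loop region of the precursor. Letters GGAG between the 2 arms were found in 8 of the 11 let-7 and miR-98 hairpins with both arms listed, against 8.12% of 739 hairpins of all families. The hairpins of let-7g, which holds the motif, and of let-7a-3, which does not, show the difference, with the motif in capitals.
MIRLET7G (chr3:52268278-52268361, minus strand): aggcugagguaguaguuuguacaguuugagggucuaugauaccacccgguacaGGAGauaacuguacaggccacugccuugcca
MIRLET7A3 (chr22:46112749-46112822, plus strand): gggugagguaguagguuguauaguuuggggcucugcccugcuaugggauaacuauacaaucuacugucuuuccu

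Every one of the 7 mRNAs had a match to the let-7 seed, CTACCTC, in the 3′ untranslated region of its canonical transcript (GENCODE 44, GRCh38, sense strand), against 9.77% of 19535 protein-coding genes. LIN28B, HMGA2 and IGF2BP1 had 4 matches each, and the other 4 genes had 1 each. Longer regions hold more matches. Among regions of like length, 0.121% had as many as LIN28B, 0.0408% as many as HMGA2 and 0.379% as many as IGF2BP1, whereas for the genes with 1 match the share was 8.79% (HMGA1) to 16.7% (LIN28A). These genes are known let-7 targets, so the matches describe what they share and are no test of let-7 in these cells. The first match of each gene follows as 30 bases of the 3′ untranslated region, with the match in capitals, including the A beyond it where the gene has one.
LIN28A (chr1:26427348-26427377, plus strand): gcacagcctattgaaCTACCTCAtttttgc
LIN28B (chr6:105078812-105078841, plus strand): acccggttgcaaagtCTACCTCAtgcaagt
HMGA1 (chr6:34245829-34245858, plus strand): tcctctgttcacaaaCTACCTCtggacagt
HMGA2 (chr12:65963298-65963327, plus strand): gccaacgttcgatttCTACCTCAgcagcag
IGF2BP1 (chr17:49051061-49051090, plus strand): tgtgtgcgaagtaaaCTACCTCAaggtatg
IGF2BP2 (chr3:185644213-185644242, minus strand): aacacacagaagaagCTACCTCAggtgttt
IGF2BP3 (chr7:23311788-23311817, minus strand): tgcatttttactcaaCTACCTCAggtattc

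The A that extends the match to 8 bases was present at 9 of the 16 matches, and HMGA1 was the single gene without one. The matches lay at any distance from the stop codon, from 21 bases (HMGA2) to 5568 bases (IGF2BP1).

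Between day 2 and day 22 the 7 genes split into groups that moved in opposite directions on each matrix. LIN28A, LIN28B, HMGA1, IGF2BP1 and IGF2BP3 fell on all 3 matrices, HMGA2 rose on all 3, and IGF2BP2 rose on LN523 and LN521. LIN28A fell the most, 56.4-fold on LN523, and HMGA2 rose 1.75-fold there. All 7 genes passed the test on LN523 and on LN521 and 6 on LN323 (edgeR's quasi-likelihood test, Benjamini-Hochberg adjusted p under 0.05 over 44852 genes). The share of all genes that passed in the same comparison was 21.7% on LN523, 22.7% on LN323 and 18.9% on LN521, and in the direction of fall or rise it was 10.2% and 11.5% on LN523, 10.9% and 11.8% on LN323 and 8.09% and 10.8% on LN521. Among genes of at least 1 CPM (counts scaled by library size), 50.2%, 52.4% and 43.3% passed in either direction.

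Between day 22 and day 32, LIN28A alone passed the test on each matrix, where 0.381% of all genes passed on LN523, 0.0424% on LN323 and 0.268% on LN521. DESeq2 called 1, 0 and 1 of the 7 genes in these comparisons, and limma on log2(TPM + 1) called 0, 0 and 1. With the stricter filter filterByExpr, edgeR called 0 of the 7 genes on each matrix, and 0, 1 and 5 genes of the whole table. At an unadjusted p under 0.05, edgeR had 3, 3 and 7 of the 7 genes, against 1963, 1280 and 2763 of 44852 genes, and in each of the 3 matrices all 7 had negative fitted log2 fold changes.

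**Figure D1:**
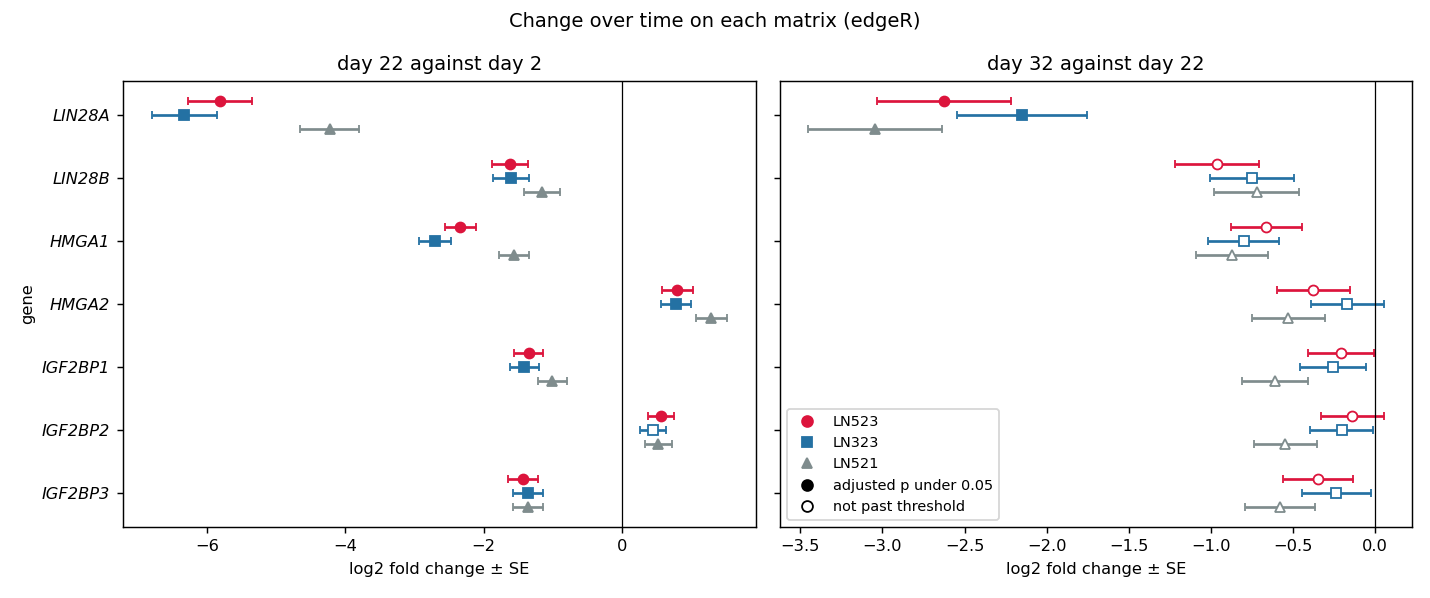
Log2 fold change ± SE of the 7 genes on each matrix from day 2 to day 22 and from day 22 to day 32 (edgeR, 3 libraries per group). LIN28A lies farthest from 0 in both panels, at -5.82 and -2.62 on LN523, and HMGA2 and IGF2BP2 lie above 0 in the first panel.

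LIN28A lies on chromosome 1 (GRCh38, chr1:26410817-26429728, plus strand) and shares no exon with another annotated gene. LIN28A stood at day 2 at 3086, 3289.7 and 3338 TPM on LN523, 2943, 3047 and 3151 TPM on LN323 and 2555, 2749 and 3599 TPM on LN521. By day 22 it had dropped to 162, 20.4 and 56.3 TPM on LN523, 48.7, 42.5 and 54.4 TPM on LN323 and 233, 148 and 104 TPM on LN521. The day 22 libraries were unequal, from 20.4 TPM to 233 TPM, and replicate 2 of LN523 was the lowest and replicate 1 of LN521 the highest. At day 32 the LIN28A level was 6.05, 7.98 and 21.2 TPM on LN523, 10.2, 3.69 and 22.0 TPM on LN323 and 28.0, 19.1 and 11.8 TPM on LN521. Levels of day 2 lay above all those of day 22, whereas days 22 and 32 overlapped, since 3 libraries of day 32, replicate 3 of LN523, replicate 3 of LN323 and replicate 1 of LN521, stood above replicate 2 of LN523 at day 22. In CPM, the median over the libraries of day 32 was 0.327% of that of day 2.

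On the log2 scale, the change of LIN28A from day 2 to 22 was -5.82 ± 0.46 on LN523, -6.33 ± 0.47 on LN323 and -4.23 ± 0.43 on LN521, with edgeR adjusted p of 7.37e-15, 6.46e-16 and 2.02e-11, and each of these calls stayed under all 12 alternative settings. The further change of LIN28A from day 22 to 32 was -2.62 ± 0.41 on LN523, -2.15 ± 0.40 on LN323 and -3.05 ± 0.41 on LN521, lower in 3 of 3 lanes on each matrix, with edgeR adjusted p of 1.37e-04, 0.0106 and 1.06e-05. The later fall was less firm. With the stricter edgeR filter filterByExpr, the adjusted p was 0.113 on LN523, 0.943 on LN323 and 0.0936 on LN521, and over the alternatives it ranged from 3.25e-08 to 0.113, from 3.51e-19 to 0.943 and from 8.16e-41 to 0.0936. On LN323 the adjusted p was 0.056 without the replicate block, and it missed the threshold when replicate 1 (0.0725) or 3 (0.166) of day 22 or replicate 2 of day 32 (0.327) was left out. Pluripotency markers fell for 9 of 9 genes on each matrix from day 2 to 22, where 10.2%, 10.9% and 8.09% of all genes fell on LN523, LN323 and LN521. From day 22 to 32 they fell for 2 of 9 on LN521 and 0 of 9 on LN523 and LN323 by edgeR. Their part in the fall of LIN28A was not tested.

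LIN28B, the paralog that acts through the same let-7 precursors, lies on chromosome 6 (chr6:104936616-105083332, plus strand), and 3.05% of its exonic bases lie opposite the antisense gene LIN28B-AS1, whose counts were at most 0.807% of those of LIN28B. LIN28B levels at day 2 were 165, 159 and 256 TPM on LN523, 149.7, 182 and 138 TPM on LN323 and 167, 189 and 171 TPM on LN521. Day 22 LIN28B levels were 104, 51.2 and 75.5 TPM on LN523, 78.2, 56.7 and 60.9 TPM on LN323 and 95.9, 73.6 and 70.0 TPM on LN521. Every library of day 22 stood below every library of day 2. The LIN28B level at day 32 was 31.9, 36.9 and 45.2 TPM on LN523, 40.5, 34.2 and 43.8 TPM on LN323 and 23.6, 77.1 and 44 TPM on LN521, and replicate 2 of LN521 stood within the range of day 22 while the other 8 libraries of that day lay below all those of day 22. From day 2 to 22, the log2 fold change of LIN28B was -1.62 ± 0.26 on LN523, -1.60 ± 0.26 on LN323 and -1.16 ± 0.26 on LN521, with edgeR adjusted p of 1.89e-06, 2.11e-06 and 4.76e-04, unchanged as calls under all 12 alternatives. On LN523 that fall was 3.07-fold, where the fall of LIN28A was 56.4-fold. From day 22 to 32, LIN28B did not pass, with a log2 fold change of -0.96 ± 0.26 on LN523, -0.75 ± 0.26 on LN323 and -0.72 ± 0.26 on LN521 and edgeR adjusted p of 0.0949, 0.856 and 0.411. It passed on LN523 without replicate 2 of day 22 (0.00401) and on LN521 without replicate 2 of day 32 (0.0032). In fits of 1 matrix alone, which called 392, 277 and 453 of all genes against 171, 19 and 120, LIN28B passed on all 3 (0.0101, 0.0273 and 0.0445). Over the alternatives, the LN523 value lay between 0.00401 and 1, the LN323 value between 0.0273 and 1 and the LN521 value between 0.0032 and 1.

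**Figure D2:**
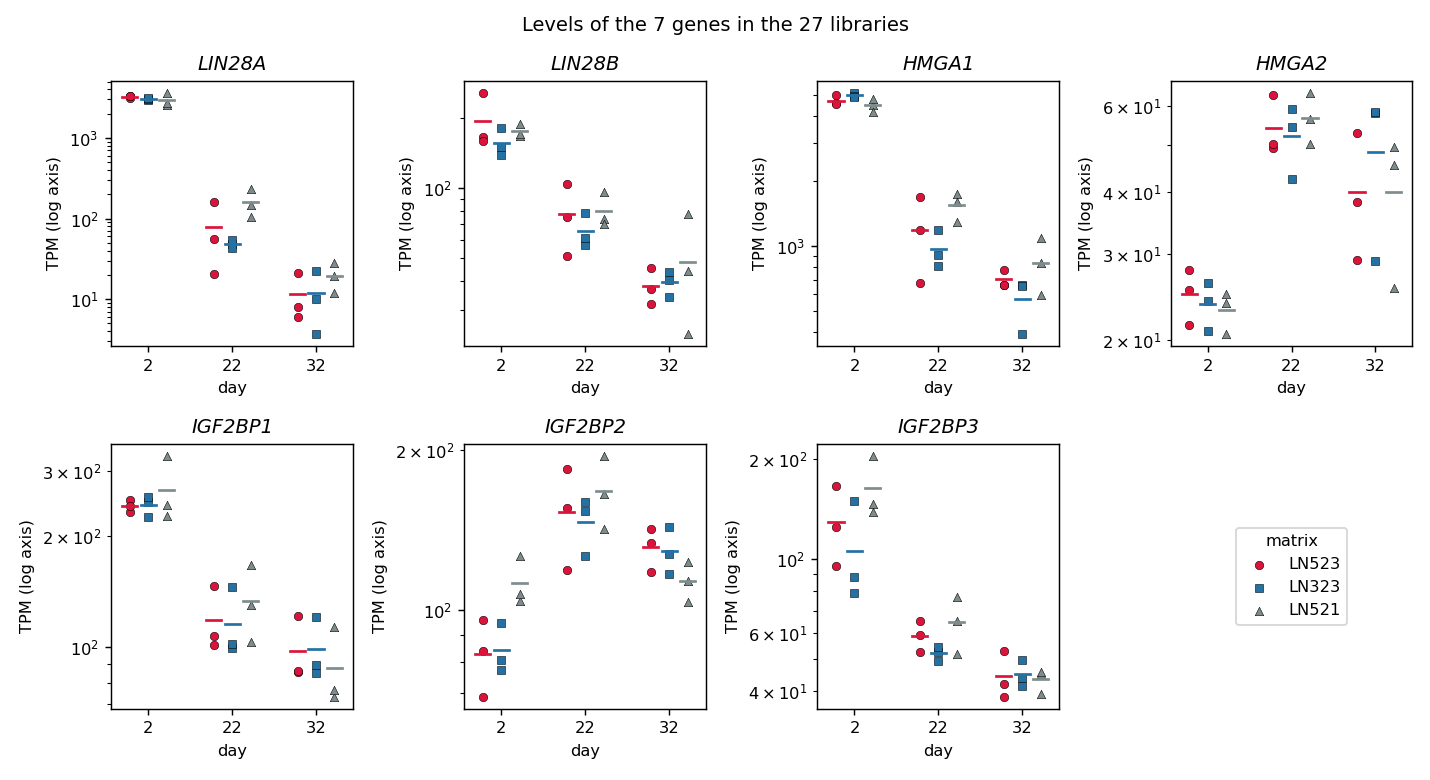
Levels of the 7 genes in TPM (log axis) in each of the 27 libraries by day, with a colour for each matrix. LIN28A spans 3.69 to 3599 TPM, HMGA1 has the highest levels from day 22 on, and HMGA2 has higher levels in all libraries of day 22 than at day 2.

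HMGA1 was the most abundant of the 7 genes in every library. The gene lies on chromosome 6 (chr6:34236873-34246231, plus strand), and stretches that make up 33.0% of its transcript are matched at 95% identity or more by 4 other genes, 3 of them HMGA1 pseudogenes, whose counts were each at most 0.202% of those of HMGA1. HMGA1 levels at day 2 were 4561, 4973 and 4521 TPM on LN523, 5093, 4934 and 4896 TPM on LN323 and 4508, 4183 and 4758 TPM on LN521. Day 22 levels of HMGA1 were 1686, 676 and 1182 TPM on LN523, 905, 805 and 1191 TPM on LN323 and 1732, 1599 and 1295 TPM on LN521. At day 32 the level of HMGA1 was 663, 662 and 779 TPM on LN523, 663, 392 and 653 TPM on LN323 and 830.4, 1085 and 595 TPM on LN521. Day 2 lay above the later days in all libraries, and days 22 and 32 overlapped, the lowest library of day 22 being replicate 2 of LN523, which was also the lowest for LIN28A and LIN28B. From day 2 to 22, HMGA1 changed on the log2 scale by -2.34 ± 0.23 on LN523, -2.71 ± 0.23 on LN323 and -1.56 ± 0.22 on LN521, with edgeR adjusted p of 4.64e-12, 5.36e-14 and 1.47e-07. From day 22 to 32 the log2 fold change of HMGA1 was -0.66 ± 0.22 on LN523, -0.80 ± 0.22 on LN323 and -0.87 ± 0.22 on LN521 and did not pass, with edgeR adjusted p of 0.357, 0.279 and 0.06. It passed on LN523 without replicate 2 of day 22 (0.0072) and on LN521 without replicate 3 of day 22 (0.0236) or replicate 2 of day 32 (0.00183). In fits of 1 matrix alone, HMGA1 passed on LN323 (7.09e-04) and on LN521 (0.00145), and over the alternatives the LN523 value lay between 0.0072 and 1, the LN323 value between 7.09e-04 and 1 and the LN521 value between 0.00145 and 0.463.

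HMGA2, a let-7 target with 4 matches, moved the other way. It lies on chromosome 12 (chr12:65824460-65966291, plus strand), with 2.55% of its exonic bases opposite HMGA2-AS1, whose counts were at most 3.69% of those of HMGA2. HMGA2 levels at day 2 were 21.5, 27.7 and 25.3 TPM on LN523, 26.1, 20.8 and 24.0 TPM on LN323 and 23.8, 24.8 and 20.6 TPM on LN521. Day 22 levels of HMGA2 were 49.1, 63.0 and 50.2 TPM on LN523, 58.9, 54.3 and 42.6 TPM on LN323 and 63.6, 56.3 and 50.1 TPM on LN521. No library of day 22 stood below 42.6 TPM and none of day 2 above 27.7 TPM. At day 32 HMGA2 stood at 29.1, 38.2 and 52.9 TPM on LN523, 28.9, 57.9 and 58.1 TPM on LN323 and 25.5, 49.4 and 45.4 TPM on LN521, and replicate 1 was the lowest library on each matrix and close to the levels of day 2. From day 2 to 22, HMGA2 rose on the log2 scale by 0.80 ± 0.22 on LN523, 0.78 ± 0.22 on LN323 and 1.30 ± 0.22 on LN521, higher in 3 of 3 lanes on each matrix, with edgeR adjusted p of 0.00474, 0.0056 and 9.52e-06. On LN323 the call was lost without replicate 2 of day 2 (0.0676, over the alternatives 4.95e-04 to 0.0676). From day 22 to 32 the log2 fold change was -0.38 ± 0.22 on LN523, -0.17 ± 0.22 on LN323 and -0.53 ± 0.22 on LN521, with edgeR adjusted p of 1, 1 and 0.621. TPM of HMGA2 rest on a length of about 15276 bases, against 4117 bases of its canonical transcript, so its level relative to other genes is lower than one computed over that transcript would be.

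IGF2BP1, which binds mRNAs such as those of ACTB and MYC, lies on chromosome 17 (chr17:48997385-49056145, plus strand), and 1.17% of its exonic bases lie opposite 2 antisense genes with at most 1.52% of its counts. IGF2BP1 levels at day 2 were 233, 251 and 241 TPM on LN523, 247, 225 and 255 TPM on LN323 and 330.3, 227 and 243 TPM on LN521. Day 22 levels of IGF2BP1 were 102, 146 and 107 TPM on LN523, 99.4, 146 and 102 TPM on LN323 and 167, 131 and 103 TPM on LN521. All libraries of day 2 lay above those of day 22, and replicate 1 of LN521 was the highest on both days. At day 32, IGF2BP1 ranged from 73.4 to 122 TPM with a median of 86.1 TPM. Its log2 fold change from day 2 to 22 was -1.35 ± 0.20 on LN523, -1.41 ± 0.21 on LN323 and -1.0 ± 0.20 on LN521, with edgeR adjusted p of 5.65e-07, 2.12e-07 and 1.27e-04. No call followed from day 22 to 32, where the log2 fold change of IGF2BP1 was -0.21 ± 0.20 on LN523, -0.25 ± 0.20 on LN323 and -0.61 ± 0.20 on LN521.

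IGF2BP3, an oncofetal paralog of IGF2BP1, lies on chromosome 7 (chr7:23310209-23470491, minus strand). Of its exonic bases, 17.8% lie opposite MALSU1, a mitochondrial ribosome assembly gene, whose counts reached 28.5% of those of IGF2BP3, and the strand setting of the counting was not given in the sources used here. Stretches that make up 40.7% of the IGF2BP3 transcript are matched by 2 other entries with at most 0.588% of its counts. IGF2BP3 levels at day 2 were 125, 95.6 and 166 TPM on LN523, 88.5, 149.9 and 79 TPM on LN323 and 146, 139 and 205 TPM on LN521. Day 22 levels of IGF2BP3 were 65.1, 52.4 and 59.1 TPM on LN523, 49.4, 52.6 and 54.3 TPM on LN323 and 76.7, 65.3 and 51.9 TPM on LN521. Days 2 and 22 lay close but did not overlap in TPM, the lowest day 2 level being 79 TPM and the highest day 22 level 76.7 TPM. At day 32 the range of IGF2BP3 was 38.5 to 52.7 TPM, with a median of 43.9 TPM. From day 2 to 22, the log2 fold change of IGF2BP3 was -1.43 ± 0.22 on LN523, -1.36 ± 0.22 on LN323 and -1.35 ± 0.22 on LN521, with edgeR adjusted p of 5.11e-07, 1.35e-06 and 2.03e-06, and from day 22 to 32 no matrix gave a call, with -0.35 ± 0.21 on LN523, -0.23 ± 0.21 on LN323 and -0.58 ± 0.21 on LN521.

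IGF2BP2, the paralog that persists in adult tissues, lies on chromosome 3 (chr3:185643130-185825042, minus strand) and shares no exon with another annotated gene. IGF2BP2 levels at day 2 were 84.0, 68.9 and 95.9 TPM on LN523, 80.7, 94.6 and 77.5 TPM on LN323 and 104, 107 and 126 TPM on LN521. Day 22 levels of IGF2BP2 were 184, 119 and 155 TPM on LN523, 153, 126 and 160.0 TPM on LN323 and 195, 142 and 165 TPM on LN521. Within each matrix, the libraries of day 22 stood above those of day 2, whereas over all matrices replicate 2 of LN523 at day 22, at 119 TPM, stood below replicate 3 of LN521 at day 2, at 126 TPM. At day 32, IGF2BP2 ranged from 104 to 143 TPM with a median of 123 TPM. The log2 fold change of IGF2BP2 from day 2 to 22 was 0.57 ± 0.19 on LN523, 0.45 ± 0.19 on LN323 and 0.53 ± 0.19 on LN521, with edgeR adjusted p of 0.025, 0.0889 and 0.0438, so that the LN323 value did not pass. The IGF2BP2 calls were the least firm of that step. On LN523 the call was lost without replicate 1 (0.0837) or 2 (0.116) of day 2 or replicate 1 of day 22 (0.0546), with 1.89e-04 to 0.116 over all alternatives. On LN521 it was lost under RLE normalization (0.0899), in a fit of that matrix alone (0.0768) and without replicate 1 (0.305) or 2 (0.111) of day 2 or replicate 1 of day 22 (0.108), with 0.00897 to 0.305 over all alternatives. On LN323 it passed under DESeq2 (0.0242), filterByExpr (0.0333) and limma (4.48e-04), and without replicate 1 (0.0406) or 2 (0.0221) of day 22, with 4.48e-04 to 0.292 over all alternatives.

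The order of the 9 groups by mean CPM went by day rather than by matrix for most of the genes followed here. For LIN28A, LIN28B, HMGA1, IGF2BP1 and IGF2BP3 the 3 groups of day 2 came first, then the 3 of day 22, then the 3 of day 32. Neighbours in this order overlapped, with a few exceptions. For each of the 5 genes, the groups stood apart at the step from day 2 to day 22. They also did at the step from LN323 day 22 to LN521 day 32 for LIN28A, and between LN523 and LN323 at day 32 for HMGA1. The share of all genes with such a gap between days 2 and 22 was not computed. From day 2 to 22, edgeR called 50.2%, 52.4% and 43.3% of genes of at least 1 CPM on LN523, LN323 and LN521. The gap may therefore not be particular to these 5 genes. For HMGA2, the groups of day 22 came first and those of day 2 last, and LN521 at day 2 stood apart below LN323 at day 2. For IGF2BP2 no neighbours stood apart, and LN521 at day 2 ranked above LN521 at day 32.

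With unequal changes within a family, the make-up of each family shifted. LIN28B held a median of 5.08% of the LIN28 TPM at day 2, 52.8% at day 22 and 79.9% at day 32. At day 22, the LIN28A share of the LIN28 TPM was 59.7% to 70.8% on LN521, 38.4% to 47.2% on LN323 and 28.5% to 60.7% on LN523, so that LN521 lay apart from LN323 and overlapped LN523. LIN28A remained the larger part in 1 library of day 32, replicate 1 of LN521, at 54.2%.

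HMGA1 held 99.5% of the HMGA TPM at day 2 in the median library, 96.3% at day 22 and 94.5% at day 32. The HMGA2 share rose from a median of 0.510% at day 2 to 3.73% at day 22 and 5.45% at day 32, with the highest share, 12.9%, on LN323 at day 32. Within the IGF2BP family, IGF2BP1 led at day 2 with a median of 52.6% of the family TPM, followed by IGF2BP3 with 28.4% and IGF2BP2 with 19.0%. At day 22, IGF2BP2 led with 48.3%, ahead of IGF2BP1 with 33.4% and IGF2BP3 with 17.2%, and the medians of day 32 were close to these, at 49.7%, 33.2% and 17.1%. The ranges of the IGF2BP2 share of day 2, 16.6% to 22.7%, and of day 22, 37.5% to 52.5%, did not overlap. These shares are descriptions of the levels above, with no test of their own, and TPM of IGF2BP3 also rest on a length, 8441 bases, above that of its canonical transcript, 4274 bases.

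**Figure D3:**
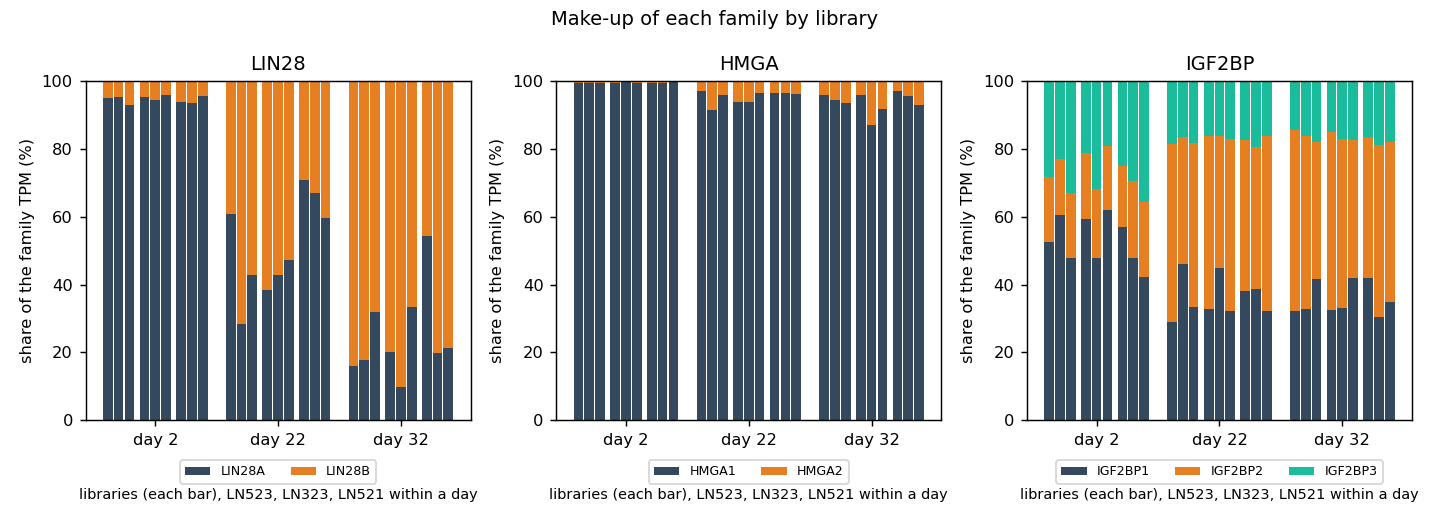
Share of each gene in the TPM of its family in each of the 27 libraries (1 bar per library, LN523, LN323 and LN521 within each day). LIN28B grows from a median of 5.08% to 79.9% of the LIN28 TPM, and IGF2BP2 from 19.0% to 49.7% of the IGF2BP TPM.

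The matrices were compared within each day, the question of the study being what LN523 changes. LIN28A at day 22 was the single gene of the 7 that passed in any of these 9 comparisons. It was lower on LN523 than on LN521, with a log2 fold change of -1.31 ± 0.23 and an edgeR adjusted p of 1.41e-04, where 0.572% of all genes passed. It was also lower on LN323 than on LN521, with a log2 fold change of -1.62 ± 0.22 and an edgeR adjusted p of 4.53e-07, where 0.616% of all genes passed. In both comparisons LIN28A was lower in 3 of 3 lanes, though the labels pair no cultures by lane. The log2 differences by lane were -0.52, -2.96 and -0.84 for LN523 and -2.23, -1.85 and -0.85 for LN323. The SE of the fit, which draws on other genes and all 9 libraries of the day, is narrow beside this scatter. The levels given above show that the LN521 libraries, at 104 TPM or more, stood apart from LN323, at 54.4 TPM or less, and overlapped LN523, whose replicate 1 reached 162 TPM.

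These LIN28A calls rested on the settings of the fit. Against LN521, the adjusted p with filterByExpr was 0.94 for LN523 and 0.915 for LN323, with DESeq2 1 and 0.43, with limma 0.882 and 0.9, and without the replicate block 0.904 and 0.585. For LN523 and LN521 the call was also lost in a fit of these groups alone (1) or of all 27 libraries (0.666), and without LN523 replicate 2 (0.0502, a log2 fold change of -0.71) or 3 (0.304). For LN323 and LN521 it was lost without LN323 replicate 1 (0.308) or 3 (0.0893). In both comparisons, filterByExpr and limma called 0 genes of the whole table. The adjusted p ranged over the alternatives from 6.41e-11 to 1 for LN523 and from 4.54e-20 to 0.915 for LN323.

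A library of LN521 at day 22 held more RNA of pluripotency markers than the others of that day. Replicate 1 of LN521 at day 22, the highest in LIN28A, had a sum of the 9 pluripotency markers of 454.8 TPM, where the other 8 libraries of that day ranged from 56.5 to 91.6 TPM. Its neuron marker sum also stood out, at 435.9 TPM against 20.5 to 54.4 TPM in the other 8. Its proliferation marker sum, 1012 TPM, was the highest of that day. POU5F1, the defining pluripotency factor, named after its values were seen, stood at 108 TPM in that library and at 1.84 and 2.11 TPM in the other LN521 libraries of that day. Pluripotency markers passed the test as lower for 2 of 9 genes on LN523 and 5 of 9 on LN323 against LN521. Of all genes, 0.572% and 0.616% passed in these comparisons. Without replicate 1 of LN521, edgeR with the main filter gave LIN28A a log2 fold change of -1.48 on LN523 (edgeR adjusted p of 6.41e-11). On LN323 it was -1.73 (edgeR adjusted p of 4.54e-20), both against LN521. Beyond these fits with the main filter, the part of that library in the LIN28A difference was not tested. Replicate 1 of LN523, with 162 TPM of LIN28A, had a pluripotency sum of 78.6 TPM, within the range of the other LN523 and LN323 libraries. At day 22, 4 of 6 neuron markers and 3 of 7 pigment epithelium markers were also lower on LN523 than on LN521. With filterByExpr or limma, 0 genes of the whole table passed in either comparison with LN521, so these marker calls were lost. The neuron marker sums were 435.9, 36.0 and 24.6 TPM on LN521 and 20.5, 49.6 and 20.9 TPM on LN523. The part of these markers in the LIN28A difference was not tested.

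**Figure D4:**
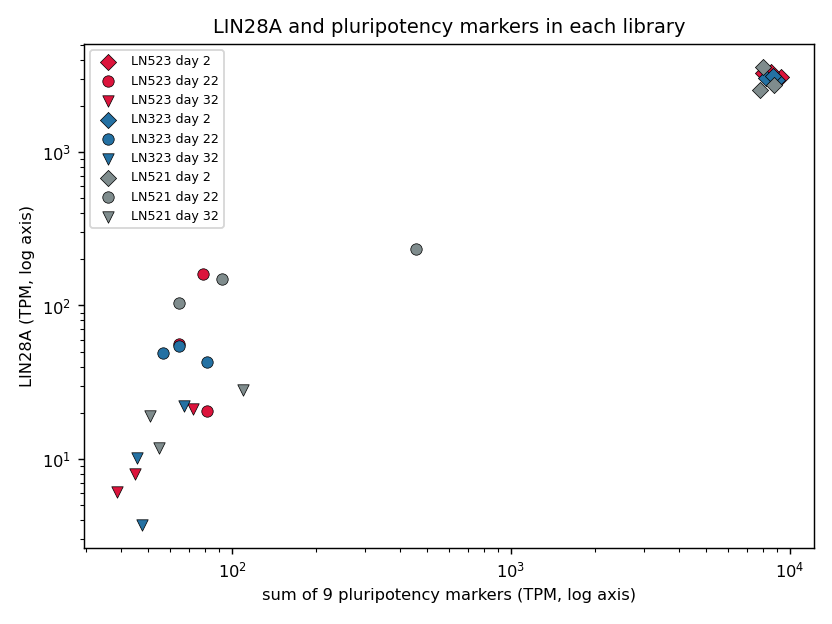
LIN28A level against the sum of 9 pluripotency markers in each of the 27 libraries, both in TPM on log axes, with a colour for each matrix and a symbol for each day. The libraries of day 2 sit at the top right, LN521 replicate 1 of day 22 stands alone at 454.8 TPM of markers, and at similar marker sums LIN28A spans 20.4 to 162 TPM at day 22.

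The other 6 genes did not pass in any comparison of matrices. HMGA1 came closest, lower on LN323 than on LN521 at day 22 with a log2 fold change of -0.67 ± 0.18 and an edgeR adjusted p of 0.0508, and it passed without replicate 1 (2.64e-04) or 3 (0.00414) of LN521. In the remaining 7 comparisons of matrices, edgeR called 0 of the 7 genes, where 0.233%, 0.624% and 2.50% of all genes passed at day 2 (LN523 against LN323, LN523 against LN521 and LN323 against LN521), 0.0130% at day 22 (LN523 against LN323) and 0%, 0.0609% and 0.117% at day 32, in the order of day 2. At an unadjusted p under 0.05 these comparisons had 0, 1, 2, 0, 0, 1 and 2 of the 7 genes, against 921, 3118, 4401, 514, 747, 2034 and 1762 of the 38609 to 39377 genes tested, and DESeq2 and limma called 0 in all 9 comparisons. Single libraries brought other calls. Without replicate 1 of LN521 at day 32, which held 22.1 TPM of POU5F1, LIN28B (edgeR adjusted p of 0.00203) and IGF2BP1 (0.0268) differed between LN523 and LN521, and LIN28B (0.00466), IGF2BP1 (0.0388) and HMGA1 (7.50e-05) between LN323 and LN521. Leaving out that library raised the calls over all genes from 24 to 1907 and from 46 to 2143. Without replicate 2 of LN323 at day 2, IGF2BP3 differed between LN523 and LN323 (0.0185), and IGF2BP3 and HMGA1 between LN323 and LN521, where 1 of the 7 also passed without replicate 3 of LN521 (lowest adjusted p over the alternatives 2.67e-04 and 0.042), with calls over all genes up from 90 to 763 and from 967 to 3439 without the LN323 library and down to 689 without the LN521 library. Without replicate 2 of LN523 at day 22, LIN28A differed between LN523 and LN323 (0.00494), with 223 genes called in all against 5.

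In a fit of these groups alone, HMGA1 was higher on LN523 than on LN323 at day 32 (edgeR adjusted p of 0.0101), where 1035 genes of the whole table passed against 0 with all libraries of that day. In the latter its log2 fold change was 0.34, higher in 3 of 3 lanes, with an adjusted p of 1. The log2 difference between LN523 and LN323 at day 32 was 0.09 ± 0.42 for LIN28A and 0.01 ± 0.19 for IGF2BP3, and LIN28A had the largest SE of the 7 genes there.

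Whether the change over time itself differed between matrices was tested as an interaction in edgeR over all 27 libraries. None of the 7 genes passed in the 6 interactions, in which 0%, 0.00446% and 0.0201% of all genes passed from day 2 to 22 (LN523 against LN323, LN523 against LN521 and LN323 against LN521) and 0% in each from day 22 to 32. DESeq2 and limma called 0 as well, and at an unadjusted p under 0.05 the counts were 0, 2 and 2 of the 7 genes for the first step, against 949, 2085 and 2383 of 44852 genes, and 0 for the later one, against 901, 2142 and 1540 genes. On the log2 scale, the difference in the LIN28A change from day 2 to 22 between LN323 and LN521 was -2.10 ± 0.54 (edgeR adjusted p of 0.18) and that in the HMGA1 change was -1.15 ± 0.31 (0.198). For LN523 against LN521 the LIN28A value was -1.59 ± 0.54 (0.727). LIN28A passed without LN523 replicate 1 of day 22 (LN523 against LN521, 0.0164, with 7 genes called in all against 2) and without LN521 replicate 3 of day 22 (LN323 against LN521, 0.0158, with 100 against 9).

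The genes that process let-7 moved in both directions and by less than LIN28A. Of 10 such genes, on LN523 from day 2 to 22, 2 rose, 3 fell and 5 did not pass, with a median log2 fold change of -0.15 against 0.02 over all genes. TUT4, the uridylyltransferase that LIN28A recruits, had a log2 fold change of 0.86 (edgeR adjusted p of 4.54e-04), and DICER1, which cuts the hairpin, one of 0.74 (0.00291). KHSRP, which promotes let-7 maturation, had a log2 fold change of -1.01 (2.43e-05), TARBP2, a DICER1 partner, -0.74 (0.0207) and XPO5, the exporter of precursors, -0.66 (0.012). On LN323 the counts were 2 higher and 3 lower, and on LN521 1 higher and 1 lower. In that step edgeR called 50.2%, 52.4% and 43.3% of genes of at least 1 CPM on LN523, LN323 and LN521. The counts of this list on LN523 and LN323 were close to these shares. From day 22 to 32, edgeR called 0 of the 10 on any matrix.

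Transcripts that host let-7 genes changed in both directions. MIR100HG, which hosts let-7a-2 with miR-100, rose from 0.384 ± 0.352 TPM at day 2 to 38.2 ± 13.6 TPM at day 22 on LN523 (SD, n = 3; log2 fold change 6.43, edgeR adjusted p of 5.41e-15). MIR99AHG, which hosts let-7c with miR-99a, was listed at 0 in 7 of 9 libraries of day 2 and averaged 5.01 ± 2.52 TPM on LN523 at day 22 (SD, n = 3). MIRLET7BHG, which hosts let-7a-3 and let-7b, fell from 1.42 ± 0.326 TPM (SD, n = 3) to a level listed at 0 in 2 of 3 LN523 libraries of day 22 (edgeR adjusted p of 1.84e-04). HUWE1, a ubiquitin ligase gene with let-7f-2 and miR-98 in its introns, had a log2 fold change of -0.60 (edgeR adjusted p of 0.0205). Host transcripts are precursors of the hairpins, and mature let-7 was not measured.

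Other let-7 targets did not share one direction. Of 16 such genes on LN523 from day 2 to 22, 7 rose, 4 fell and 5 did not pass, with a median log2 fold change of 0.08. Among genes of at least 1 CPM, 50.2% passed there in either direction. NR6A1, an orphan nuclear receptor of early embryos, had a log2 fold change of -4.09 (edgeR adjusted p of 5.67e-18), TRIM71, an RNA-binding protein of stem cells, -3.37 (3.21e-15) and CDC25A, a cell cycle phosphatase, -2.11 (9.28e-06). PRTG, an immunoglobulin superfamily receptor of the early neural tube, rose by 4.51 (7.37e-15), STARD13 by 2.69 (3.14e-10) and FIGN, a microtubule-severing protein, by 1.96 (3.99e-07). Of seed matches, TRIM71 carried 6, NR6A1 5 and CDC25A 2, and FIGN carried 3, PRTG 2 and STARD13 0. From day 22 to 32 on LN521, TRIM71 (-1.22, edgeR adjusted p of 0.00778) fell, as did IGDCC3 (-1.53, 3.60e-04), NR6A1 (-1.09, 0.0194) and ARID3B (-0.92, 0.0194). On LN523, TRIM71 alone of the 16 fell in that step (-1.08, 0.0189), and on LN323 edgeR called 0 of the 16. In that step 0.268% of all genes passed on LN521 and 0.381% on LN523. With filterByExpr, 0 genes of the whole table passed there on LN523 and 5 on LN521, so the TRIM71 call on LN523 was lost. Whether the LN521 calls above were among those 5 was not examined. IGDCC3 and ARID3B are named after their values were seen.

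RNAs known to be bound by IGF2BP proteins were followed as 4 genes. IGF2, the growth factor mRNA that named the family, rose from 0.576 ± 0.0842 TPM at day 2 to 172 ± 149.8 TPM at day 22 on LN523 (SD, n = 3; log2 fold change 7.58, edgeR adjusted p of 2.62e-21). H19, the noncoding RNA of the same imprinted locus, rose by 6.72 on the log2 scale (2.94e-13), with LN523 libraries of day 22 that ranged from 285 to 1798 TPM. CD44, an adhesion receptor, had a log2 fold change of -2.03 (0.0177) and ACTB, beta-actin, of -0.72 (0.00128). The 4 genes gave 2 rises and 2 falls on each matrix in that step, and edgeR called 0 of them from day 22 to 32. In the earlier step edgeR called 50.2%, 52.4% and 43.3% of genes of at least 1 CPM on LN523, LN323 and LN521. Mesenchyme and neural crest markers rose for 5 of 6 genes on each matrix from day 2 to 22, and their part in the IGF2 and H19 rise was not tested.

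The other high mobility group genes, of the HMGB and HMGN families, gave no rise past the threshold. Of 8 such genes on LN523 from day 2 to 22, 4 fell and 4 did not pass, with a median log2 fold change of -0.63. HMGB3 had a log2 fold change of -1.93 (edgeR adjusted p of 1.79e-08), HMGB1 of -1.18 (4.09e-05) and HMGN2 of -0.76 (0.0187). On LN323, 4 fell, and on LN521, 2 fell. Among genes of at least 1 CPM, edgeR called 50.2%, 52.4% and 43.3% on LN523, LN323 and LN521 in either direction. MYCN, a MYC family gene known to induce LIN28B, fell on LN523 with a log2 fold change of -1.02 (0.00181) and on LN323 with -1.06 (0.00107), and its value on LN521 was -0.30 (0.551). Proliferation markers fell for 6 of 7 genes on LN523 and LN323 and 5 of 7 on LN521 in the same step, and their part in the fall of HMGA1, IGF2BP1, IGF2BP3 and the HMGB genes was not tested.

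The genes whose levels over the 27 libraries were most like those of a member were sought among 18409 genes, by Pearson correlation of log2(CPM + 1). All points share the same libraries, and the differences between days dominate these values. Most like LIN28A were TRIM71 (r = 0.989), SALL4, a zinc finger factor of stem cells (r = 0.988), and NR6A1 (r = 0.980), and most like HMGA1 were SALL4 (r = 0.987), ARHGAP45 (r = 0.986) and TRIM71 (r = 0.984). For LIN28B they were IPO5 (r = 0.966), FLT4 (r = 0.963) and TFB1M (r = 0.960). IGF2BP1 was nearest to NASP (r = 0.980), MOCOS (r = 0.978) and NACC1 (r = 0.978), and IGF2BP3 to WDHD1 (r = 0.974), PDK3 (r = 0.967) and TRIM71 (r = 0.967). The genes that rose had lower values, HMGA2 with CRISPLD1 (r = 0.872), TRIM5 (r = 0.871) and PLEKHA8 (r = 0.865), and IGF2BP2 with EML3 (r = 0.886), PTK2 (r = 0.879) and DNAJC6 (r = 0.864). TRIM71 and NR6A1 stand here also in the list of let-7 targets.

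Within groups, the 3 libraries showed a further order among the members, noticed after their values were seen. In 8 of the 9 groups, the library highest in IGF2BP1 was the lowest in IGF2BP2, by CPM. Of 18408 genes set beside IGF2BP1 in the same way, 3.13% had their lowest library there in at least as many groups, the median gene having 3. LIN28B and IGF2BP3 had the same highest library in 8 of 9 groups (0.147% of genes had at least as many with LIN28B) and LIN28A and HMGA1 in 7 of 9 (1.55% with LIN28A). HMGA1 with IGF2BP3 and IGF2BP2 with IGF2BP3 also shared their highest library in 7 of 9 groups, and the share over all genes was not computed for these pairs. Same-lane LN523 and LN323 libraries deviated together at days 22 and 32 (correlations of 0.484 to 0.815), so the 9 groups are not separate observations. The 21 pairs of members were compared for a shared highest library, a shared lowest library and the highest of one as the lowest of the other. Shares over all genes were computed only for pairs picked after these counts were seen. These shares therefore do not measure how rare such pairs are, and no test was made.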

How the data were processed

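RNA-seq of 27 libraries from H1 cells was analysed, 3 for each of 3 laminin matrices and 3 days. Per the submitters' processing notes and the methods, the authors trimmed adapters with cutadapt, aligned reads to hg38 with STAR 2.5.2b and counted them per gene with featureCounts 1.5.1, and the strand setting was not given in the sources used here. The deposited counts were whole numbers, 68.8% of the nonzero ones even, and the deposited TPM were the authors' length-corrected values, which summed to 1000000 per library. The count to TPM ratio of a gene gave the length behind its TPM.

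Counts of genes with a sum above 1 were tested with edgeR 4.0.16 (R 4.3.3, TMM factors, quasi-likelihood F-test, two-sided, adjusted p under 0.05 by Benjamini-Hochberg over all genes tested). The replicate number, a sequencing lane, was a block, as in the methods. Changes over time and interactions used all 27 libraries, and comparisons of matrices used the 9 libraries of a day, with 38609 to 39377 genes. An SE is the log2 fold change divided by the square root of F. Alternatives were DESeq2 1.42.0 (Wald test), RLE factors, filterByExpr, no replicate block, limma 3.58.1 on log2(TPM + 1) for genes with a mean TPM of at least 0.1, other sets of libraries, and leaving out each library. Tested on simulated data, edgeR and DESeq2 with the permissive filter made more false calls than the threshold allows. The filterByExpr setting was not simulated, and calls of members that it ends are given with that value. As a check of the pairing, the deviations of same-lane LN523 and LN323 libraries correlated at 0.484 to 0.815 at days 22 and 32 and at -0.686 to 0.0955 at day 2, and those with LN521 at -0.167, 0.323 and 0.423 (LN523) and -0.253, 0.423 and 0.232 (LN323) at day 22, and the numbers pair no samples by culture in the labels.

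The members and lists were chosen with earlier results of these data known. Beside the 7 members, the text names from each list up to 3 rises and 3 falls with the largest log2 fold change past the threshold from day 2 to 22 on LN523, at a mean of at least 1 CPM, and the 3 genes most like each member. Sequences came from RefSeq (GRCh38.p14) for microRNAs and from GRCh38 with GENCODE 44 for seed matches; copies elsewhere were sought with minimap2 2.31-r1302 at 150 bases or more and 95% identity. Regions of like length were 0.8 to 1.25 times as long.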

Additional observations from a re-analysis of the deposited data

How the results depend on the processing

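Of 302 alternative values of the 25 called fold changes of members, 269 stayed past the threshold, 33 missed it and 0 turned direction. Of 1735 alternative values of the 122 fold changes that did not pass, 30 passed and 161 changed sign. Among the values printed above, HMGA2 from day 22 to 32 on LN323 (-0.17) ranged from -0.32 to 0.10 without 1 library, and changed sign to 0.03 without replicate 1 of LN323 at day 22 and to 0.10 without replicate 1 at day 32. The printed values of LN523 against LN323 at day 32 changed sign as well. Over the alternatives, LIN28A ranged from -0.36 to 0.69 and IGF2BP3 from -0.09 to 0.08.

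Counts of members called from day 2 to 22 stayed within 1.5 times of 7, 6 and 7. From day 22 to 32, where 1 member passed on each matrix, the count on LN323 was 0 with DESeq2, 0 with filterByExpr, 0 without the replicate block, 0 with limma, 3 in a fit of that matrix alone and 0 to 1 without 1 library. On LN523 it was 0 with filterByExpr and with limma, 2 in a fit of that matrix alone and 1 to 3 without 1 library, and on LN521 it was 0 with filterByExpr, 3 in a fit of that matrix alone and 1 to 3 without 1 library.

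For LN523 against LN521 at day 22 the count fell from 1 to 0 with DESeq2, filterByExpr, limma, no replicate block, the groups compared alone or all 27 libraries, and was 0 to 1 without 1 library. For LN323 against LN521 at day 22 it fell from 1 to 0 with DESeq2, filterByExpr, limma or no replicate block, and was 0 to 2 without 1 library. Removal of the block or pairing by lane changed no other count of members. LN523 against LN323 at day 32 had 1 member in a fit of these groups alone against 0. Without 1 library, counts were 0 to 1 for LN523 against LN323 at days 2 and 22, 0 to 2 for LN323 against LN521 at day 2, 0 to 2 for LN523 and 0 to 3 for LN323 against LN521 at day 32, and 0 to 1 for the change from day 2 to 22 on LN523 or LN323 against LN521. Over all genes, edgeR with filterByExpr called 0, 1 and 5 genes from day 22 to 32 on LN523, LN323 and LN521 (against 171, 19 and 120) and 0 in each comparison of matrices (against 0 to 967), fits of 1 matrix alone called 392, 277 and 453 from day 22 to 32, and DESeq2 called 195, 11 and 342 from day 22 to 32 and 486 to 897 between matrices. From day 2 to 22 on LN523, filterByExpr, which tests fewer genes, called 10707 against 9751. The causes were not tested.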
